A study of Arabidopsis thaliana with 12 samples.

Results

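The effects of the mutations aba2 and ein2 on transcript levels in Arabidopsis thaliana were set against each other, probe set by probe set, to find genes that moved in opposite ways. The aba2 effect was the level in aba2 plants 12 days old minus the level in Col-7 plants of the same age. The ein2 effect was the level in ein2 plants 14 days old minus the level in Col-0 plants of that age. Each of these 4 groups had 2 arrays, so 8 of the 12 arrays of the series entered the comparison, and no array served both effects. Levels were log2 of the signal plus an offset of 50, and control probe sets were left out.

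The plants came from cold-treated seeds raised on agar plates that held 1% sucrose, in the mutants and the wild types alike. The labels give the aba2 genotype as aba2/gin1-3, and the design text names the other alleles as ein2-1 and etr1-1. Mutants and wild types were thus compared at 1 age each, 12 days for aba2 and 14 days for ein2, and which 12-day wild type is the control of aba2 is not given in the labels. The tissue taken for RNA is not stated. Col-0 at 12 days and etr1 at 12 days, also with 2 arrays each, entered the fit only for the spread and for the checks named where they are used.

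ABA2 is a short-chain dehydrogenase of abscisic acid (ABA) synthesis, and plants that lack it are short of this hormone of drought, cold and seed dormancy. EIN2 sits in a membrane and passes the ethylene signal from the receptors toward the transcription factors EIN3 and EIL1, so that ein2 plants do not respond to ethylene. ETR1 is an ethylene receptor, and the dominant etr1-1 allele also blocks the response. The study is about crosstalk of ABA and ethylene signalling, and the comparison here asks which transcripts the loss of ABA synthesis and the loss of ethylene response shifted in opposite directions.

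All arrays had been scaled to 1 trimmed mean signal. Replicate arrays differed on the log2 scale with a standard deviation of 0.227 in Col-0 at 14 days, 0.259 in ein2, 0.322 in aba2 and 0.469 in Col-7, so Col-7 was the noisiest of the 4 groups. Col-0 at 12 days, used for the spread and the checks, was noisier still at 0.606. Its replicates differed over 2-fold for 1176 probe sets, against 582 in Col-7. LHCB4.2, a nuclear gene of the photosystem II antenna and so a marker of green tissue, had signals between 17546 and 26351 on the 8 arrays. The other markers of seeds, flowers and senescence that were listed were not paired with a probe set here. ABA2 and EIN2 themselves had 0 paired probe sets, so the mutated genes gave no check of the labels. With 2 arrays on each side, an exact permutation of array labels reaches no p below 0.333, and all tests below come from 1 limma fit to all arrays with Benjamini-Hochberg adjustment. The design text calls the replicates independent sets of arrays without naming separate cultures, so p-values measure the spread between these arrays.

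The aba2 and ein2 effects differed for 143 of the 13648 probe sets tested, or 1.05%, at an adjusted p under 0.05. The difference was positive, meaning higher in aba2 relative to its wild type than in ein2 relative to its own, for 77 probe sets (0.564%) and negative for 66 (0.484%). Of the 143, 121 (0.887%) formed an opposite class, in which the effects also had opposite signs and the 2 mutant arrays lay clear of the 2 wild-type arrays in both comparisons. Within that class 59 probe sets (0.432%) were up in aba2 and down in ein2, and 62 (0.454%) were down in aba2 and up in ein2. In bulk RNA, fewer cells of a type and less RNA per cell cannot be told apart. Without any 1 of the 6 arrays of aba2, ein2 or Col-0 at 14 days, 25 to 39 probe sets passed. Without Col-7 replicate 1 the number was 101, and without Col-7 replicate 2 it was 158.

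Each effect taken alone passed for fewer probe sets. The aba2 effect passed for 62 (0.454%), of which 34 (0.249%) rose and 28 (0.205%) fell, and the ein2 effect passed for 51 (0.374%), of which 14 (0.103%) rose and 37 (0.271%) fell. Both effects passed for 5 probe sets (0.0366%), all in opposite directions. In limma, 0 probe sets (0%) passed in both in the same direction. At an unadjusted p under 0.05 the effects met in opposite directions for 194 probe sets and in the same direction for 33.

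As a description, the effects also ran against each other over the whole table. Over all 13648 probe sets the effects had opposite signs for 8055, or 59%, and their Pearson correlation was -0.355 (Spearman -0.287), between effects with no array in common. Probe sets are not independent replicates, and they share array, scaling and normalisation within each group. Without 1 array at a time the Pearson correlation ran from -0.377 to -0.257, the weakest being without Col-7 replicate 1. It was -0.30 in the dimmest part of the probe sets, -0.354 in the middle part and -0.407 in the brightest part, each of nearly equal size. Mutant and wild-type arrays were clear of each other in both comparisons with opposite signs for 1762 probe sets (12.9%) and with the same sign for 743 (5.44%).

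**Figure D1:**
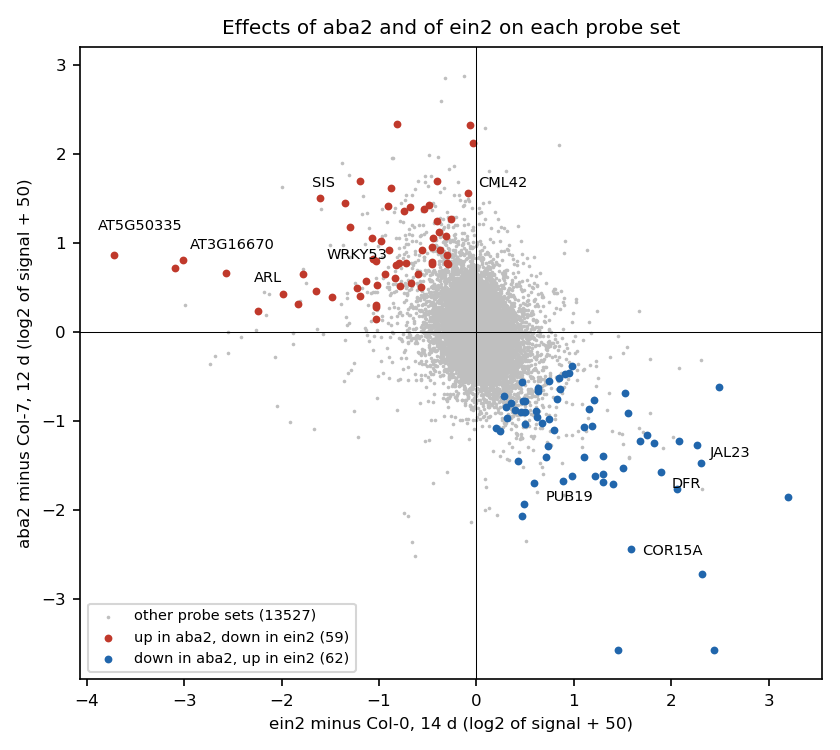
Effect of ein2 (x axis) and of aba2 (y axis) on each of 13648 probe sets, both as log2 of signal plus 50, with the opposite class in colour. The 59 red and 62 blue points lie at the upper left and lower right, with ARL and AT5G50335 far along the ein2 axis, CML42 near 0 on it, and COR15A low on the aba2 axis.

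The members of the opposite class differed in which mutant carried the difference. Among the 59 up in aba2 and down in ein2, the median aba2 effect was 0.81 and the median ein2 effect -0.84, and the aba2 effect passed for 13 and the ein2 effect for 18, with 1 in both. Among the 62 in the other direction, the medians were -1.08 and 0.90, with 23 passing in aba2, 11 in ein2 and 4 in both. Neither effect passed singly for 29 and 32 probe sets. Both effects were over 2-fold for 5 of the 59 and for 22 of the 62. For 5 of the 59 and 2 of the 62, 1 of the effects was under 0.25 in log2, so that the opposite sign there rests on a very small value. A single gene was paired with 28 of the 59 and 21 of the 62. Where arrays of a member are said below to lie clear of its wild type, that is a condition of the class and no added result.

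JAL23, a gene of the jacalin-related lectin family, fell in aba2 and rose in ein2. Its signal was 410.4 and 459 on the Col-7 arrays and 109 and 139.6 on the aba2 arrays, against 128 and 161 in Col-0 at 14 days and 1066 and 773 in ein2. The aba2 arrays lay well below Col-7 and the ein2 arrays well above Col-0, with no overlap. In limma the aba2 effect was -1.48 (adjusted p = 0.0172) and the ein2 effect 2.31 (adjusted p = 0.000409), and the difference between them was -3.78 ± 0.27 (SE, n = 2 arrays per group, adjusted p = 0.000205). JAL23 also passed when any single one of the 8 arrays was dropped, with differences from -4.004 to -3.56.

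SIS, salt induced serine rich, was the only named gene that passed in both mutants in the other direction. Its signal was 807 and 1217 in Col-7, 3218 and 2639 in aba2, 1267 and 1483 in Col-0 at 14 days and 359 and 484 in ein2. All aba2 values exceeded all Col-7 values, and all ein2 values lay below those of Col-0. In limma SIS rose in aba2 by 1.51 (adjusted p = 0.0390) and had an effect of -1.603 in ein2 (adjusted p = 0.0321), a difference of 3.11 ± 0.37 (adjusted p = 0.00522) that passed without each of the 8 arrays, between 2.83 and 3.39.

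The other 3 probe sets that passed in both carry no single gene name here and fell in aba2 and rose in ein2. Probe set 254232_at had the largest difference of the 121. Its signal was 1393 and 2516 in Col-7, 86.8 and 139 in aba2, 279 and 268 in Col-0 at 14 days, and 1478 and 1977 in ein2. Both aba2 arrays thus lay below every array of the other 3 groups, and ein2 lay above Col-0, with effects of -3.58 and 2.44 on the log2 scale (limma, adjusted p = 0.00205 and 0.00875). Probe set 252618_at had signals of 6738 and 6215 in Col-7 and 877 and 1008 in aba2, and of 1432 and 1378 in Col-0 and 6655 and 7819 in ein2. Its effects were -2.72 and 2.32 (limma, adjusted p = 0.00205 and 0.00200). Probe set 246481_s_at, paired with several genes, had effects of -1.68 and 1.29 (limma, adjusted p = 0.00869 and 0.0162).

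COR15A was down in aba2 and up in ein2 by sign. It encodes a chloroplast protein of cold acclimation and is a classical ABA- and cold-induced gene. Its signal was 1286 and 657 in Col-7, 165 and 99.4 in aba2, 56.2 and 79.7 in Col-0 at 14 days, and 271 and 340 in ein2. The groups did not overlap in either comparison, although the level in aba2 remained above that of the older Col-0. The difference of -4.03 ± 0.65 passed in limma (adjusted p = 0.0204), while neither the aba2 effect of -2.44 (adjusted p = 0.0563) nor the ein2 effect of 1.59 (adjusted p = 0.395) passed alone. The COR15A difference ran from -4.49 to -3.57 in the leave-one-out fits, and passed in only 1 of the 8. Its sign could not turn there, since no arrays overlapped in either comparison.

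DFR encodes dihydroflavonol reductase, an enzyme of anthocyanin synthesis. Its signal was 608 and 656 in Col-7, 203 and 157 in aba2, 63.1 and 177 in Col-0 at 14 days, and 528 and 566 in ein2. The mutant arrays lay clear of their wild types, and aba2 and Col-0 at 14 days overlapped at the low end. The DFR difference was -3.47 ± 0.45 (limma, adjusted p = 0.00742), the ein2 effect of 1.90 passed (adjusted p = 0.0370) and the aba2 effect of -1.57 did not (adjusted p = 0.0670). The difference passed without 7 of the 8 arrays and had an adjusted p of 0.0586 without ein2 replicate 2.

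PUB19 encodes a plant U-box E3 ubiquitin ligase. Its signal was 602 and 428 in Col-7, 148 and 96.1 in aba2, 178 and 183 in Col-0 at 14 days, and 409.7 and 752 in ein2. Each mutant was clear of its own wild type, while Col-7 and ein2 overlapped, and the difference was -3.11 ± 0.54 (limma, adjusted p = 0.0302). PUB19 depended on the wild type chosen for aba2: with Col-0 at 12 days in place of Col-7 the aba2 effect was 0.74 and the difference -0.66 (limma, adjusted p = 0.735). It passed without 1 of the 8 arrays, and had an adjusted p of 0.144 without aba2 replicate 2.

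Of the 12 named genes in this direction 8 are known here by locus code only, with differences from -3.83 to -2.48. AT1G19960 had signals of 1473 and 814 in Col-7, 416 and 430.1 in aba2, 120 and 165 in Col-0 at 14 days and 844 and 894 in ein2. Each mutant lay clear of its own wild type. The AT1G19960 difference of -3.54 ± 0.40 passed (limma, adjusted p = 0.00416), and it passed without each of the 8 arrays. AT5G03350 had the largest locus-code difference, -3.83 ± 0.73 (limma, adjusted p = 0.0418), with 2910 and 1163 in Col-7, 523 and 488 in aba2, 629 and 699 in Col-0 and 2961 and 2864 in ein2. The Col-7 arrays of AT5G03350 were far apart, and with Col-0 at 12 days as the wild type the difference was -2.56 (limma, adjusted p = 0.158). AT1G76960, at -2.70 ± 0.53, likewise did not pass with that wild type (limma, adjusted p = 0.105).

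The remaining 5 were AT1G52000, AT5G62130, AT4G17470, AT1G64360 and AT1G66100. AT1G52000 (-3.32), AT5G62130 (-3.11) and AT1G66100 (-2.48) passed in ein2 alone, with ein2 effects of 2.08, 2.49 and 1.56. AT1G64360 (-2.52) passed in aba2 alone, with an effect of -1.41. For AT4G17470 (-2.90) neither effect passed alone. AT1G66100 was the brightest of them, with signals of 5126 and 2886 in Col-7, 2043 and 1985 in aba2, 2098 and 2571 in Col-0, and 6371 and 7579 in ein2.

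In the opposite direction, up in aba2 and down in ein2, the largest differences belonged to genes whose ein2 effect was the larger one. AT5G50335 had signals of 335 and 534 in Col-7, 836 and 794 in aba2, 621 and 761 in Col-0 at 14 days, and 0.93 and 11.7 in ein2. The ein2 arrays were thus far below the offset of 50, which makes the log2 effect smaller than the ratio of signals. Its difference was 4.59 ± 0.32 (limma, adjusted p = 0.000205), made of an ein2 effect of -3.72 that passed (adjusted p = 0.000114) and an aba2 effect of 0.87 that did not (adjusted p = 0.144). AT3G16670 had signals of 1226 and 1375 in Col-7, 2426 and 2206 in aba2, 3087 and 3004 in Col-0, and 411 and 271 in ein2. Its ein2 effect was -3.01 (limma, adjusted p = 0.000364) and its aba2 effect 0.81 (adjusted p = 0.202), and against Col-0 at 12 days the aba2 effect was only 0.16.

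ARL, an ARGOS-like gene of organ size, followed the same form. Its signal was 967 and 913 in Col-7, 1426 and 1136 in aba2, 1749 and 2230.1 in Col-0 at 14 days, and 443 and 481 in ein2. The ein2 arrays stood far below all others, while aba2 lay a little above Col-7 and below the older Col-0. The difference was 2.40 ± 0.28 (limma, adjusted p = 0.00441). ARL fell by 1.99 in ein2 (limma, adjusted p = 0.00173), whereas its aba2 effect of 0.42 did not pass (adjusted p = 0.426) and was 0.08 against Col-0 at 12 days. The differences of AT5G50335, AT3G16670 and ARL passed whichever of the 8 arrays was dropped. AT3G12710, with a difference of 2.096 ± 0.26 and an ein2 effect of -1.64 that passed (limma, adjusted p = 0.00341), passed without 7 of them and had an adjusted p of 0.0529 without Col-0 replicate 1 at 14 days.

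Other genes of this direction rested on aba2. CML42, a calmodulin-like calcium sensor, had signals of 161 and 249 in Col-7, 785 and 605 in aba2, 389 and 389 in Col-0 at 14 days and 359.9 and 365 in ein2. It rose in aba2 by 1.56 (limma, adjusted p = 0.0196), while its ein2 effect was -0.09, so that its opposite sign there amounts to almost nothing. The same held for AT5G28630, with effects of 2.12 (limma, adjusted p = 0.0196) and -0.03. AT2G25735 (1.69 and -0.41) and AT4G18340 (1.38 and -0.54) also passed in aba2 and not in ein2.

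WRKY53, a transcription factor of leaf senescence and defence, had signals of 328 and 417 in Col-7, 849 and 522 in aba2, 683 and 689 in Col-0 at 14 days, and 359.7 and 435 in ein2. Its aba2 effect of 0.77 and ein2 effect of -0.72 were nearly equal in size, neither passed alone, and the difference was 1.49 ± 0.30 (limma, adjusted p = 0.0474). Each of CML42 and WRKY53 passed without only 1 of the 8 arrays, with adjusted p up to 0.195 without Col-0 replicate 1 at 14 days and 0.211 without ein2 replicate 1. AT2G18690 (2.79), AT2G22880 (2.49), AT5G18470 (2.33) and AT2G47880 (1.99) completed the 12 named genes with the largest differences in this direction, and for none of these 4 did an effect pass alone.

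**Figure D2:**
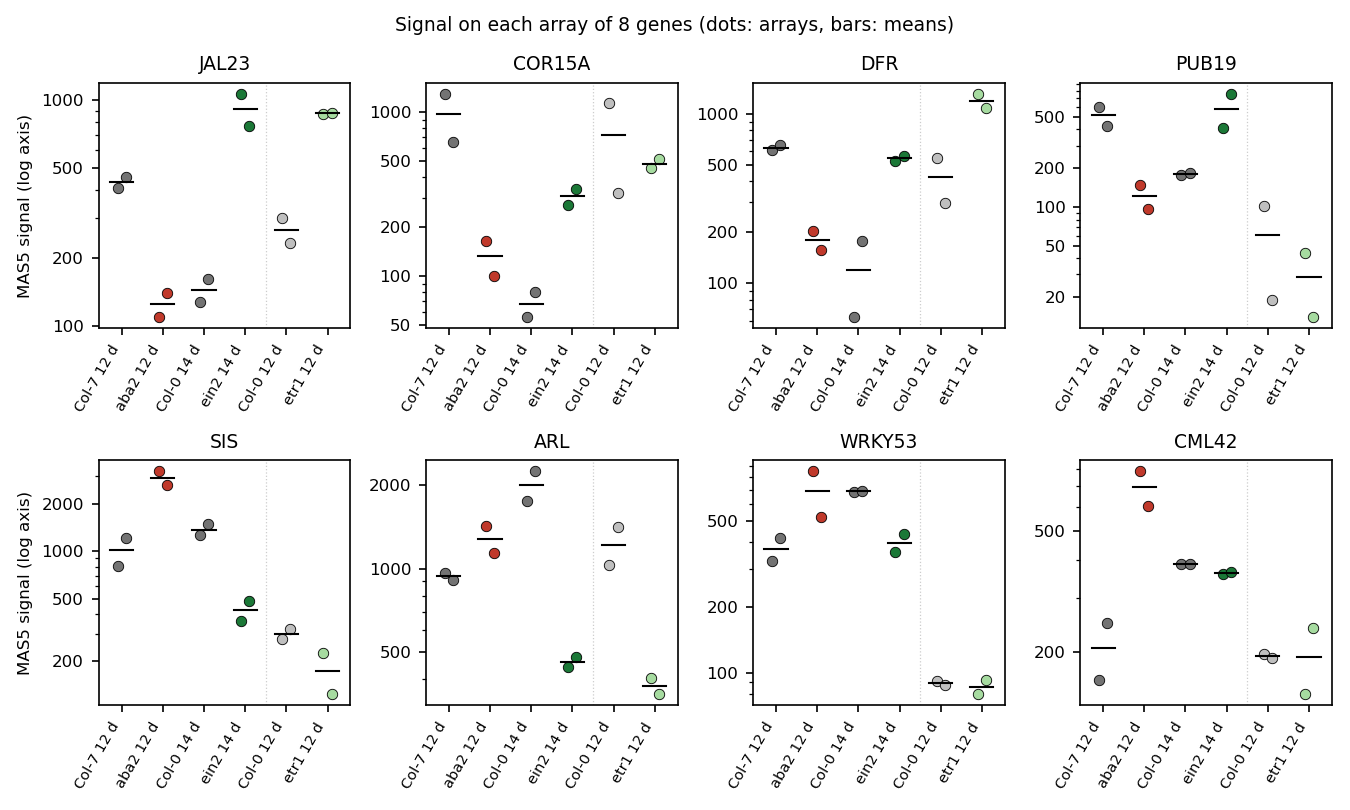
Signal of 8 genes on each array (dots) with group means (bars), on log axes, for the 4 groups compared and, right of the dotted line, for Col-0 and etr1 at 12 days. JAL23, COR15A, DFR and PUB19 are lower in aba2 than in Col-7 and higher in ein2 than in Col-0, SIS and ARL the reverse, and CML42 lies at 389 in Col-0 and 359.9 and 365 in ein2.

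A difference between the effects was not always an opposition. Among the 143, 22 lay outside the opposite class: 6 had both effects of 1 sign and 16 had arrays that overlapped. AT5G57760 and AT2G39980, chosen after their values were seen, show the form this took. AT5G57760 had an ein2 effect of -2.73 and an aba2 effect of -0.36, and AT2G39980 had -1.88 and -0.01, so that each fell in ein2 (limma, adjusted p = 0.000409 and 0.00200) without an opposite move in aba2.

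The hormone lists were thin on this annotation: 31 of their 182 listed members were paired with a probe set and 25 were tested. Of 4 ABA-responsive genes tested, 1 passed for the difference, COR15A, with a lower effect in aba2, beside 1.05% of all probe sets tested. The other 3 were LTI30, a dehydrin (difference 0.94, limma, adjusted p = 0.404), COR15B, the near copy of COR15A (-0.85, adjusted p = 0.451), and COR47, another dehydrin (0.77, adjusted p = 0.454). The median difference of the 4 was -0.04, beside 0.00 over all probe sets tested, and ran from -0.26 without aba2 replicate 2 to 0.11 without aba2 replicate 1, so its sign turned.

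Of 3 ethylene-responsive genes tested, ARL passed, with the higher effect in aba2, beside 1.05% of all probe sets tested. The plant defensins PDF1.2 (-0.84) and PDF1.2b (-0.74) missed the threshold. Their replicates were far apart, at 149.7 and 780 for PDF1.2 in aba2, and without aba2 replicate 1 the differences turned to 0.19 and 0.20. Of the ethylene signalling genes, EIN3, the transcription factor downstream of EIN2, had a difference of 0.37 (limma, adjusted p = 0.681), and RTE1, a regulator of the ETR1 receptor, 0.59 (adjusted p = 0.354).

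Of 5 rapid stress and touch genes, 2 passed, CML42 and WRKY53, both with the higher effect in aba2, beside 1.05% of all probe sets tested. CML38, another calmodulin-like gene, had a difference of 0.44 and ORA47, a jasmonate-related AP2/ERF factor, -0.78. Without Col-7 replicate 1 the latter 2 turned sign, to -0.06 for CML38 and 1.09 for ORA47. The median difference of the 5 was 0.54, and ran from 0.06 without aba2 replicate 1 to 1.34 without Col-7 replicate 1. None of 4 auxin genes passed in limma, and 1, IAGLU, had an unadjusted p under 0.05, as did 12.1% of all probe sets tested. IAGLU, which glucosylates the auxin IAA, fell by 1.26 in ein2 (limma, adjusted p = 0.0108) and had an aba2 effect of -0.35, so both effects had 1 sign. None of the 3 gibberellin receptor genes passed in limma, and GID1B alone had an unadjusted p under 0.05, with a difference of 0.97 (adjusted p = 0.133). APL3, a sugar-induced subunit of the starch enzyme ADP-glucose pyrophosphorylase, had a difference of -1.58 (adjusted p = 0.266).

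The plastid-encoded genes were mostly lower in aba2 and higher in ein2, by small amounts. Of 68 tested, 63 were lower in aba2 than in Col-7, 54 were higher in ein2 than in Col-0, and 59 had opposite signs. Over all 13648 probe sets tested these counts were 6918, 6679 and 8055. The plastid medians were -0.40 for the aba2 effect, 0.24 for the ein2 effect and -0.68 for the difference. Each of the 3 medians was 0.00 over all probe sets tested. For these genes 1 difference passed in limma, that of rps2, beside 1.05% of all probe sets. An unadjusted p under 0.05 was reached by 27, beside 12.1% of all probe sets. The plastid genes are transcribed together from 1 small genome, so the 68 are not independent of each other. Plastid transcripts mostly carry no stable poly(A) tail, so signals from a labelling of this kind are a limited measure of their abundance.

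The rps2 gene of a plastid ribosomal protein had signals of 4397 and 6409 in Col-7, 2725 and 2189 in aba2, 2350.4 and 2427 in Col-0 at 14 days, and 4452 and 3914 in ein2. The aba2 arrays lay below Col-7 and the ein2 arrays above Col-0, with aba2 and Col-0 in the same low range. The difference was -1.90 ± 0.30 (limma, adjusted p = 0.0188), with effects of -1.10 and 0.79 that did not pass alone. The 9 genes of the NDH complex, which cycles electrons around photosystem I, were all lower in aba2 and all higher in ein2, and so were the 5 of photosystem I and the 6 of the ATP synthase. Of 15 genes of photosystem II, 13 were lower in aba2 and 11 higher in ein2, and of 15 ribosomal protein genes 14 and 11. Of the 6 cytochrome b6f genes 4 were lower in aba2 and 2 higher in ein2.

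The plastid medians held their signs without each array in turn. The median difference ran from -0.88 to -0.61, and the median aba2 effect from -0.52 to -0.35. The median ein2 effect was 0.15 without ein2 replicate 1 and 0.37 without ein2 replicate 2, so its size hung on which ein2 array was kept. Without the plastid genes the correlation of effects over the remaining 13580 probe sets was -0.351. The 3 nuclear chlorophyll-binding genes, LHCB4.2 among them, had a median difference of -0.03, which ran from -0.33 without Col-7 replicate 1 to 0.11 without ein2 replicate 2.

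The beta-glucosidases, which cleave glucose from glucosides, were lower in aba2 for 7 of 9 and higher in ein2 for 9 of 9. Over all 13648 probe sets tested, 6918 were lower in aba2 and 6679 higher in ein2. The medians of the family were -0.23 (-0.10 without Col-7 replicate 1) and 0.25. For the difference 0 of the 9 passed in limma and 2 had an unadjusted p under 0.05, beside 12.1% of all probe sets. BGLU28 was the furthest, with a difference of -1.40 (adjusted p = 0.276). Among the xyloglucan endotransglucosylases, enzymes that cut and rejoin cell wall xyloglucan, the medians were 0.51 in aba2 and -0.36 in ein2 over 6 genes. Of the 6, 4 were higher in aba2 and 5 lower in ein2, beside 6730 and 6969 of all 13648 probe sets tested. The difference was negative for 2 of them. None of the 6 passed in limma, while 4 had an unadjusted p under 0.05, beside 12.1% of all probe sets. XTH19 had signals of 148 and 269 in Col-7, 676 and 393 in aba2, 1768 and 1559.6 in Col-0 at 14 days, and 1185 and 919 in ein2, with a difference of 1.82 (adjusted p = 0.0936), and XTH18 had 2.34 (adjusted p = 0.152).

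All 6 WRKY factors tested had effects of opposite signs, beside 59% of all probe sets, and 5 were up in aba2, beside 6730 of 13648. Only WRKY53 passed, beside 1.05% of all probe sets, and the median difference of the 6 was 0.46. That median was 0.11 without Col-7 replicate 1, 0.23 without ein2 replicate 1 and 0.29 without aba2 replicate 2, and 3 of the 6 were lower in aba2 in the first and the last of these. Of 11 autophagy genes 8 were higher in aba2 and 7 lower in ein2, beside 6730 and 6969 of all 13648 probe sets tested. The autophagy medians were 0.38 and -0.11. For the difference 0 passed in limma and 2 had an unadjusted p under 0.05, beside 12.1% of all probe sets. Among the 4 jacalin-related lectins found by name JAL23 alone passed, beside 1.05% of all probe sets. JAL22, JAL33 and JAL34 had differences of -0.62, 0.10 and 0.22. Families were gathered by gene symbol or synonym, so a lectin carried here by locus code only could be missed, and the 4 are not the whole family. Single members of other families had wide differences that did not pass in limma: the cytochrome P450 gene CYP71B22 at 3.62 (adjusted p = 0.05003), the sugar transporter genes SAG29 at -2.86 (adjusted p = 0.112) and SWEET10 at 2.97 (adjusted p = 0.121), and the expansin-like EXLB1 at -2.28 (adjusted p = 0.0871).

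**Figure D3:**
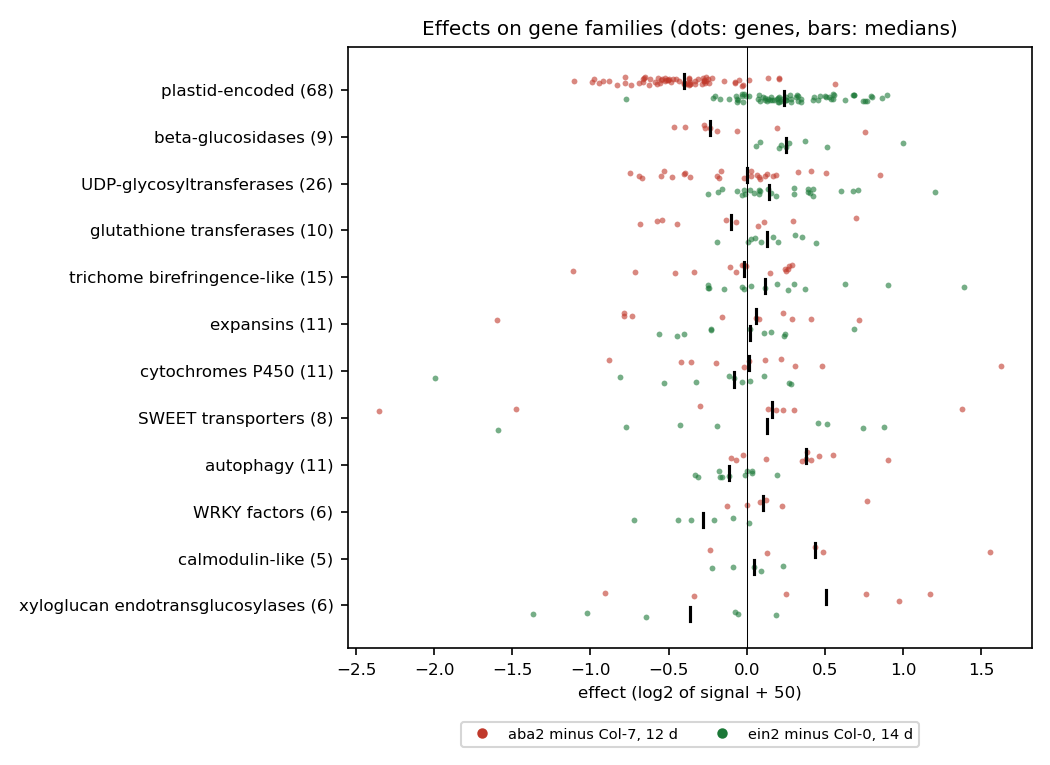
Effects of aba2 (red) and ein2 (green) on the tested genes of 12 families, as log2 of signal plus 50, with a dot for each gene and a bar at each median. The plastid-encoded genes have medians of -0.40 and 0.24, the beta-glucosidases -0.23 and 0.25, and the xyloglucan endotransglucosylases 0.51 and -0.36, while the expansins and cytochromes P450 lie near 0 in both.

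The wild types of the comparison themselves differed for many members of the opposite class. Col-7 at 12 days lay below Col-0 at 14 days for 56 of the 59 probe sets up in aba2 and down in ein2, beside 52.5% of all probe sets, and above it for 55 of the 62 in the other direction, beside 47.5%. The wild types differed past the threshold in limma for 28 of the 59, all lower in Col-7 (4.1% of all probe sets), and for 19 of the 62 as higher in Col-7 (2.56%) and 3 of the 62 as lower. These counts use the same 8 arrays as the difference of effects, which equals the gap between the mutants minus the gap between the wild types, so they describe the class and test nothing about it.

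The mutants also differed from each other. Past the threshold in limma, aba2 was above ein2 for 38 of the 59 (4.49% of all probe sets) and below ein2 for 55 of the 62 (6.19%). Relative to the mean of the 8 arrays, the 59 had median levels of 0.55 in aba2, -0.41 in Col-7, 0.38 in Col-0 at 14 days and -0.45 in ein2. The 62 had medians of -0.84, 0.34, -0.30 and 0.68 in the same order. Col-0 at 12 days, which has the accession of 1 of these wild types and the age of the other, had medians of -0.32 in the 59 and -0.10 in the 62. Both wild types lay between the mutants for 19 of the 59 and for 41 of the 62. The level in aba2 was closer than that of Col-7 to Col-0 at 14 days for 42 of the 59 and 39 of the 62. Neither ordering was counted over all probe sets, and both follow in part from the rule of the class, so they only describe it.

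**Figure D4:**
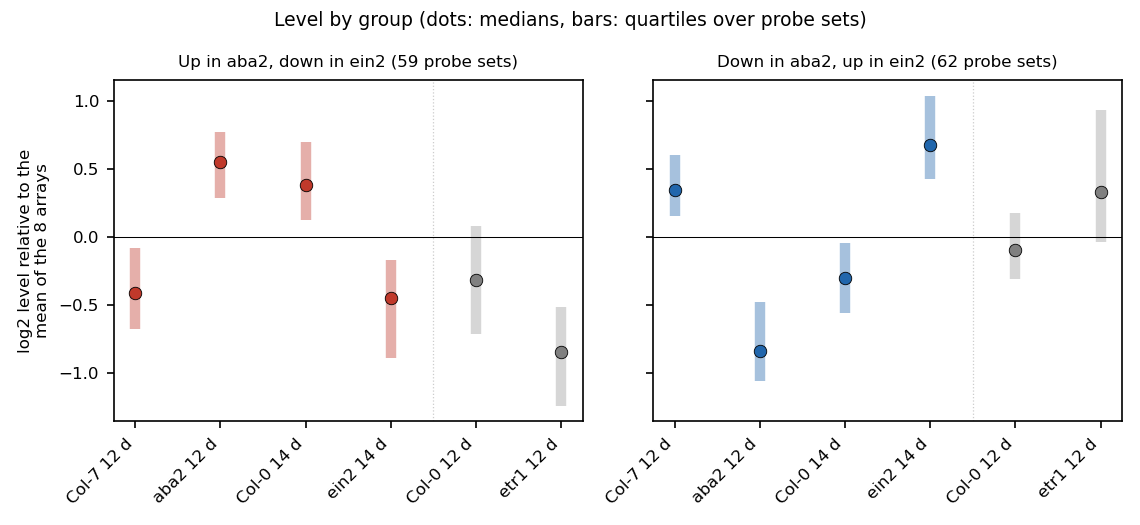
Level of the opposite class in each group, as log2 relative to the mean of the 8 arrays, with the median over probe sets (dot) and the quartiles (bar). In the 59 probe sets aba2 (0.55) and Col-0 at 14 days (0.38) are the high groups, and in the 62 Col-7 (0.34) and ein2 (0.68) are, with Col-0 and etr1 at 12 days drawn in grey for reference.

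The choice of Col-7 as the wild type of aba2 was set beside Col-0 at 12 days, whose replicates were the noisiest of the series. Against that wild type the aba2 effect kept its sign for 57 of the 59 and for 60 of the 62 probe sets. The same aba2 arrays chose the members, so these counts are largely set by that choice and are a description, not a check. The test of the difference then passed for 174 probe sets, of which 97 were among the 143, and the correlation of the effects was -0.21. SIS, WRKY53 and AT2G22880 had larger differences with this wild type, at 4.69, 3.08 and 4.27, and their aba2 effects against it were 3.09, 2.36 and 3.395.

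The etr1 mutant gave a readout of the same class with arrays outside the rule, those of etr1 and Col-0 at 12 days, which entered the fit only for the spread. The etr1 effect had the sign of the ein2 effect for 46 of the 59 (lower, beside 47.7% of all probe sets) and for 49 of the 62 (higher, beside 52.3%). Its median was -0.32 and 0.33 in the respective directions. The etr1 effect passed in limma for 10 of the 59 as lower (0.256% of all probe sets) and for 7 of the 62 as higher (0.205%). In the direction of aba2 it passed for 0 of either, adjusted over all probe sets. These tests use the same spread per probe set that helped to choose the class, so the counts that passed are not independent of that choice.

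By gene, the etr1 effects of the members varied. JAL23 rose in etr1 by 1.55 (limma, adjusted p = 0.00853), and AT5G50335, AT3G16670 and ARL fell by 2.65, 2.85 and 1.55 (adjusted p = 0.000634, 0.000634 and 0.0103). AT3G12710 fell by 1.09 (adjusted p = 0.0383). DFR had an etr1 effect of 1.44 (adjusted p = 0.109) and SIS -0.67 (adjusted p = 0.436). COR15A, PUB19, WRKY53 and CML42 had etr1 effects of -0.31, -0.40, -0.04 and -0.04, none of which passed. The ein2 effects of these 4 had not passed alone either, so they gave no ein2 call to compare. PUB19 was dim here, at 43.8 and 14.0 in etr1 and 101 and 18.9 in Col-0 at 12 days. Whether the etr1 and ein2 effects of single genes differ was not tested here.

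**Figure D5:**
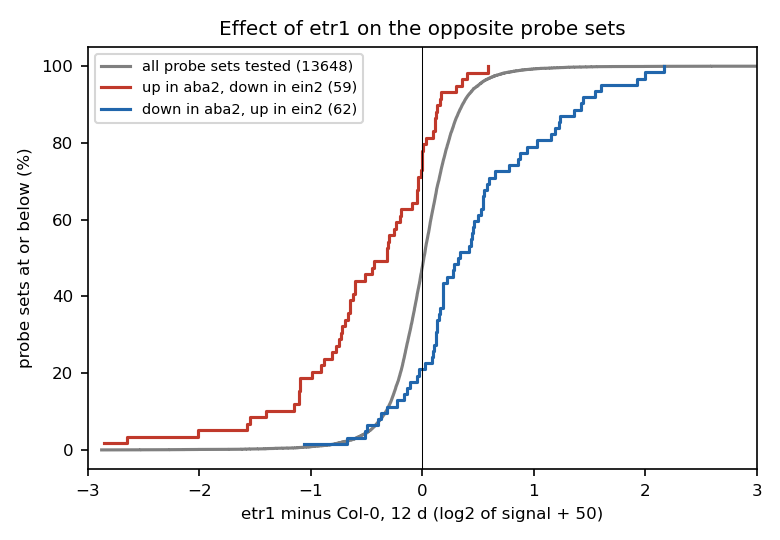
Share of probe sets (y axis, percent) whose etr1 effect against Col-0 at 12 days lies at or below the value on the x axis (log2 of signal plus 50), for all 13648 probe sets and the opposite class. The curve of the 59 lies left of the grey curve, with a median of -0.32, and that of the 62 right of it, with a median of 0.33.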

How the data were processed

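The 12 ATH1 arrays were of biotin-labelled total RNA, 1 array per sample, in 6 groups of 2 taken from the titles. The deposited values were linear signal intensity, which the authors made with Affymetrix Microarray Suite 5.0 (MAS5), per the design text and the submitters' processing notes. The trimmed means show that the authors had scaled these intensities to 1 common mean. No detection calls were used. An offset of 50 was added and log2 taken, which understates changes of dim probe sets. Probe sets with a mean signal under the 40th percentile (122.3) were left out, which kept 13648 of 22746, and 64 controls were left out too. No column was unused.

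Names came from the platform annotation. It paired 13513 probe sets with 1 gene and 503 with several, and 8730 were unnamed here. RefSeq's gene table (assembly TAIR10.1) held 13436 of the 13513. Near-identical copies such as COR15A and COR15B may share probes. No sequences were used, and motifs in promoters were not examined.

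The means of 6 groups were fitted to all 12 arrays with limma 3.58.1 in R 4.3.3 (6 residual degrees of freedom, eBayes with trend). Tests were two-sided, with Benjamini-Hochberg adjustment over the 13648 probe sets and a threshold of 0.05. The fit takes 1 spread per probe set from groups whose replicates differed unequally. The procedure was tested on simulated data. The number of arrays limits the precision.

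The opposite class needed a difference that passed, effects of opposite sign, and no overlap of arrays in either comparison. Genes were named as the 12 with the largest difference in each direction of that class, those that passed in both comparisons, and up to 4 per list by p. A list or family was described by counts and medians, with no test. The comparison, members and lists were chosen with earlier results of these data known. Lists with 0 tested members were those of ABA synthesis and signalling, ethylene synthesis, salicylate defence, seed storage, flower and senescence genes. The families with 0 tested members are not described. Alternatives were the offset, quantile normalisation, the filter, the trend, the 8 arrays alone, the replicate number as a block, Col-0 at 12 days as wild type of aba2, and leaving out each of the 8 arrays.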

Additional observations from a re-analysis of the deposited data

Results flagged for a closer look

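The aba2 and ein2 effects on the 26 genes below differed by a test of the difference itself (limma, adjusted over 13648 probe sets), which is what marked them for a closer look. Values are aba2 effect minus ein2 effect on the log2 scale. Genes that passed whichever of the 8 arrays was dropped were AT5G50335 (4.59), AT3G16670 (3.82), SIS (3.11), ARL (2.40), JAL23 (-3.78) and AT1G19960 (-3.54). DFR (-3.47) and AT3G12710 (2.096) passed without 7 of the 8.

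Without 1 array, 4 of the 8 fits still passed for AT1G66100 (-2.48), AT1G64360 (-2.52) and AT1G52000 (-3.32), and 3 of them for AT2G18690 (2.79). AT2G47880 (1.99), AT4G18340 (1.92), AT4G17470 (-2.90) and AT5G62130 (-3.11) passed in 2 of the 8. Genes that passed in only 1 were AT2G22880 (2.49), AT5G18470 (2.33), AT5G28630 (2.16), AT2G25735 (2.101), CML42 (1.65), WRKY53 (1.49), AT1G76960 (-2.70), PUB19 (-3.11), AT5G03350 (-3.83) and COR15A (-4.03). The signs of all 26 differences held in these 8 fits, which the rule of no overlap in either comparison had fixed in advance. The ranges were widest for AT1G76960, from -3.22 to -2.17, AT4G17470, from -3.54 to -2.27, and AT5G03350, from -4.47 to -3.18.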

How the results depend on the processing

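The number of probe sets with a difference between the effects (143), in the opposite class (121), and with an aba2 effect (62) or an ein2 effect (51) moved by over 1.5 times in these settings. With no filter the first pair was 88 and 73, with more dim probe sets tested. A filter at the 60th percentile gave 41 for aba2, with fewer tested. The 8 arrays alone gave 310, 257 and 183 for the difference, the class and aba2, all 143 among the 310. That fit takes no spread from Col-0 and etr1 at 12 days. Col-0 at 12 days as wild type gave 221 for aba2, and 174 and 112 for the difference and class, the 112 split as 70 up and 42 down in aba2. Without 1 array the 4 numbers ran from 25 to 158, 21 to 142, 4 to 58 and 12 to 58, the 4 being without either aba2 array. The replicate number as a block gave 159, 132, 75 and 55. The labels tie the 2 numbers to no shared batch. Same-numbered deviations correlated at 0.341 between aba2 and Col-7, 0.542 between Col-7 and Col-0 at 12 days and 0.486 between aba2 and Col-0 at 12 days, but at -0.07 between ein2 and Col-0 at 14 days. Offsets of 10 and 150 gave 127 and 157 differences, and quantile normalisation 151. The 121 differences kept their sign in these settings, except that the 60th-percentile filter tested only 92 of them, and for Col-0 at 12 days 117 kept opposite effects. In the fits without 1 array that sign was fixed in advance by the rule of no overlap. Over the named genes, 619 single-gene values kept their call, 137 no longer passed, 1 newly passed (APL3) and 0 turned sign while past the threshold. Dim signals limit what can be read: 3 probe sets of each direction had a group mean below the offset.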

Other observations

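Further gene families and lists were also measured, and their values are given as a description. Of 26 UDP-glycosyltransferases, which attach sugars to hormones and pigments among others, 19 were higher in ein2 and 13 lower in aba2. Over all 13648 probe sets tested, 6679 were higher in ein2 and 6918 lower in aba2. For the difference 0 of the 26 passed in limma and 8 had an unadjusted p under 0.05, beside 12.1% of all probe sets tested. UGT78D1, which attaches rhamnose to flavonols, had signals of 916 and 507 in Col-7, 446 and 334 in aba2, 387 and 438 in Col-0 at 14 days and 1229 and 838 in ein2. Its mutant arrays were clear of the wild types on both sides, like those of the anthocyanin gene DFR, but its difference of -1.96 had an adjusted p of 0.182 in limma.

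Of 10 glutathione transferases 9 were higher in ein2 and 6 lower in aba2, beside 6679 and 6918 of all 13648 probe sets tested. The median difference of the 10 was -0.16, and 3 had an unadjusted p under 0.05, beside 12.1% of all probe sets. Of 15 trichome birefringence-like genes, which act on cell wall acetylation, 9 were lower in aba2 and 9 higher in ein2. Over all 13648 probe sets tested these counts were 6918 and 6679. Without aba2 replicate 1, and likewise without Col-7 replicate 2, 6 of the 15 were lower in aba2. An unadjusted p under 0.05 was reached by 4 of the 15, beside the same 12.1%. TBL26 was the furthest at -2.51 (limma, adjusted p = 0.183). The median difference was -0.08 over 11 expansins, 0.04 over 11 cytochromes P450, 0.12 over 8 SWEET sugar transporters and 0.44 over 5 calmodulin-like genes. The first 3 of these medians turned sign when 1 array was dropped, and that of the calmodulin-like genes was 0.05 without Col-0 replicate 1 at 14 days. Of the 5 calmodulin-like genes only CML42 passed, beside 1.05% of all probe sets. SWEET13 had signals of 416 and 228 in Col-7, 91.7 and 68.7 in aba2, 134 and 223 in Col-0 and 289 and 454 in ein2, with a difference of -2.36 (limma, adjusted p = 0.200). The jasmonate list had 1 tested gene, OPCL1, a CoA ligase of jasmonate synthesis, whose effects were both positive at 0.88 and 0.47.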
